A study of Mus musculus with 6 samples.

Results

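Amino acid transporters of activated T cells were followed here as 8 genes, chosen by name and found by their symbol in a table of 54532 genes: Slc7a11, Slc3a2, Slc7a5, Slc1a5, Slc1a4, Slc38a1, Slc38a2 and Slc7a1. Each symbol had a single row, and all 8 passed the filter on low counts that left 15685 genes for testing. RNA sequencing was done on CD4 T cells from spleen and lymph nodes of C57BL/6 mice. Knockout cells carried the genotype label iCD4-PRMT5delta/delta, with deleted alleles of Prmt5 (n = 3, replicates 1, 4 and 5), and control cells the label iCD4-PRMT5fl/fl, with floxed alleles (n = 3, replicates 1, 2 and 4). The Prmt5 protein is an arginine methyltransferase that places symmetric dimethyl marks on histones, splicing factors and other proteins. Both genotypes share the prefix iCD4, which the sources used here do not expand, and these do not name the driver of the deletion. All cells of both genotypes had been stimulated for 48 h with plate-bound antibodies against CD3 and CD28, without added cytokines, and only these activated libraries were analysed here. The question is which transporter transcripts differ with Prmt5 genotype in activated helper T cells.

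Resting T cells take up few amino acids, and activation through the T cell receptor induces transporters that supply protein synthesis, growth and antioxidant defence. Slc7a5 and Slc7a11 are light chains that each pair with the heavy chain Slc3a2 to form an exchanger at the cell surface: Slc7a5 with Slc3a2 brings in leucine and other large neutral amino acids, and Slc7a11 with Slc3a2 brings in cystine against glutamate. Slc1a5 and Slc1a4 exchange neutral amino acids (glutamine for the first, alanine, serine and cysteine for the second), Slc38a1 and Slc38a2 take up glutamine and other small neutral amino acids with sodium, and Slc7a1 carries arginine, lysine and ornithine. The transcription factor ATF4, made during amino acid shortage, and Myc, made after T cell activation, are both known to drive genes of this group.

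The libraries held between 29623513 and 39832588 gene counts. Levels are given as CPM, counts scaled to a common library size with TMM factors. A tag in the column names splits the libraries into batch A (knockout 1, controls 1 and 2) and batch B (knockouts 4 and 5, control 4), a tag whose meaning no source used here states. Because each batch holds unequal numbers of both genotypes, each transporter's difference is given from a fit on genotype alone and from a fit with the batch as a further term, both by the quasi-likelihood test of edgeR with Benjamini-Hochberg adjustment over all 15685 genes and a threshold of 0.05. Prmt5 stood at 41.1, 34.2 and 36.7 CPM in knockouts 1, 4 and 5, against 134, 133 and 98.2 CPM in controls 1, 2 and 4. Every knockout library was below every control library for the targeted gene. For Prmt5 the log2 fold change was -1.70 on genotype alone (edgeR adjusted p = 0.109) and -1.58 with the batch term (edgeR adjusted p = 0.00312), where it was -1.49 without knockout 1 and -1.70 without control 4 (edgeR adjusted p = 0.0707 and 0.0601). Summed over 8 CD4 T cell markers, the level ranged between 1579 and 2132 CPM in knockouts and between 1707 and 1896 CPM in controls, and Cd4 itself was at 241 CPM or more in every library. The 2 CD8 T cell markers summed to between 9.0 and 19.6 CPM in knockouts and between 7.08 and 15.4 CPM in controls. Summed markers of some other cells were higher in knockouts 1 and 5, though not every marker was. The 7 B cell markers, 5 of them tested, summed to 21.2, 4.92 and 23 CPM in knockouts 1, 4 and 5, against 5.72, 4.08 and 4.02 CPM in controls 1, 2 and 4. The 4 platelet markers, 3 of them tested, summed to 36.1, 11 and 27.2 CPM in knockouts 1, 4 and 5, against 16.3, 11.8 and 9.85 CPM in controls 1, 2 and 4. Among them Gp9 was highest in control 1. The 6 dendritic cell markers, 3 of them tested, summed to 7.54, 3.88 and 10.4 CPM in knockouts 1, 4 and 5, against 4.87, 3.24 and 4.12 CPM in controls 1, 2 and 4. Of these, Flt3 was lower in knockout 1 than in controls 1 and 4, and Zbtb46 lower in knockout 5 than in control 1. Xcr1 was highest in control 1, and Siglech was at 0 in knockout 1 and in every control. The part of such cells in the transporter differences was not tested.

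The clearest genotype differences in this group were in the neutral amino acid exchangers and the shared heavy chain. Slc1a5, Slc1a4, Slc3a2 and Slc7a5 were lower in knockouts than in controls on average in both fits and inside both batches, by between 0.40 and 1.01 on the log2 scale with the batch term, and Slc1a5 was the 1 member that passed the threshold in that fit. Slc38a2 and Slc7a1 had smaller negative values, Slc38a1 was close to 0, and Slc7a11 had opposite signs in the 2 batches. The log2 fold change was negative for 8 of 8 members on genotype alone (49% of all genes), for 7 of 8 with the batch term (47.9%) and for 6 of 8 inside both batches (33.3%). With the batch term 1 of 8 members fell and 0 rose past the threshold, where 3.63% of all genes fell (570 of 15685) and 2.87% rose. On genotype alone 0 of 8 members passed, as did 0 of all 15685 genes (0%), and 3 members (Slc3a2, Slc1a5 and Slc1a4) were lower and 0 higher at an unadjusted p under 0.05, where 4.79% of all genes were lower and 6.56% higher. With the batch term 4 members were lower at an unadjusted p under 0.05, those 3 and Slc7a5, where 14.1% of all genes were. The median log2 fold change of the members, knockout over control, was -0.56 in the genotype fit and -0.31 in the batch-term fit, beside 0.01 and 0.02 for all genes.

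Slc1a5, the glutamine exchanger (ENSMUSG00000001918.17, chromosome 7, positions 16781340 to 16798274, plus strand of GRCm38), had 192, 164 and 161 CPM in knockouts 1, 4 and 5, against 295, 268 and 217 CPM in controls 1, 2 and 4. All 3 knockouts were below all 3 controls, which held for 2 of the 8 members (Slc1a5 and Slc3a2) and for 8.68% of all genes, while 0 members and 9.35% of all genes had every knockout above every control. The group means were 172 ± 16.8 CPM in knockouts and 260 ± 39.6 CPM in controls (SD, n = 3 each). Without a batch term the value was -0.59 on the log2 scale (SE 0.16), with an edgeR adjusted p of 0.278. With it, Slc1a5 fell by 0.49 (SE 0.09, edgeR adjusted p = 0.0345). Batch A alone gave -0.55 and batch B alone -0.42, so the knockout level was 68.1% and 74.8% of control. Leaving out single libraries ended the call in 4 of 6 cases, with log2 fold changes between -0.56 and -0.44. The edgeR adjusted p was 0.142 without knockout 1, 0.0822 without control 1, 0.109 without control 2 and 0.239 without control 4. Most genes lost their call in those fits. With the batch term, 59 genes were higher and 90 lower past the threshold without control 1, and 1 and 2 without control 2. None of all genes passed without knockout 1 or without control 4. Over all 13 other settings, by edgeR, DESeq2 or limma-voom, the adjusted p of Slc1a5 lay between 0.000121 and 0.295.

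Slc1a4, the exchanger of alanine, serine and cysteine (ENSMUSG00000020142.12, chromosome 11, positions 20302180 to 20332713, minus strand), had the most negative log2 fold change of the 8. It stood at 13.2, 7.24 and 3.66 CPM in knockouts 1, 4 and 5, against 29.3, 25.8 and 10.6 CPM in controls 1, 2 and 4. The groups overlapped, because knockout 1 of batch A lay above control 4 of batch B, while inside each batch every knockout was below every control. The log2 fold change was -1.45 (SE 0.53, edgeR adjusted p = 0.366) on genotype alone and -1.01 (SE 0.24, edgeR adjusted p = 0.0515) with the batch term. Inside batches A and B the difference was -1.06 and -1.03, which put knockouts at 47.9% and 51.7% of control. The batch-term value did not pass in the main edgeR fit. It passed in 7 of 13 other settings, edgeR fits among them, whose adjusted p ranged between 1.25e-06 and 0.278. Its raw counts were 416, 250 and 115 in knockouts 1, 4 and 5, against 890, 854 and 407 in controls 1, 2 and 4, so counting error is larger here than for Slc1a5, with 5060 to 8985 counts.

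Slc3a2, the heavy chain that both cystine and leucine exchangers need (ENSMUSG00000010095.13, chromosome 19, positions 8706882 to 8723369, minus strand), had 162, 140 and 117 CPM in knockouts 1, 4 and 5, against 221, 216 and 166 CPM in controls 1, 2 and 4. The highest knockout lay just under the lowest control. The log2 fold change was -0.53 (SE 0.18, edgeR adjusted p = 0.334) on genotype alone and -0.40 (SE 0.10, edgeR adjusted p = 0.0551) with the batch term. Batch A alone gave -0.43 and batch B alone -0.38, and knockouts were at 74.2% and 77.4% of control.

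Slc7a5, the light chain that imports leucine (ENSMUSG00000040010.10, chromosome 8, positions 121881150 to 121907694, minus strand), had 183, 66.2 and 43.6 CPM in knockouts 1, 4 and 5, against 274, 219 and 83.9 CPM in controls 1, 2 and 4. Batch A libraries were all above batch B libraries whatever the genotype, so the groups overlapped. The log2 fold change was -0.98 (SE 0.60, edgeR adjusted p = 0.602) on genotype alone and -0.52 (SE 0.17, edgeR adjusted p = 0.0955) with the batch term. Inside batches A and B it was -0.42 and -0.64. On genotype alone Slc7a5 had -1.82 without knockout 1 and -0.63 without knockout 5, and with the batch term it lay between -0.65 and -0.40 when single libraries were left out. Exon sequence of Slc7a5 overlaps Gm20388, annotated on the other strand, which had 0 counts in every library.

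**Figure D1:**
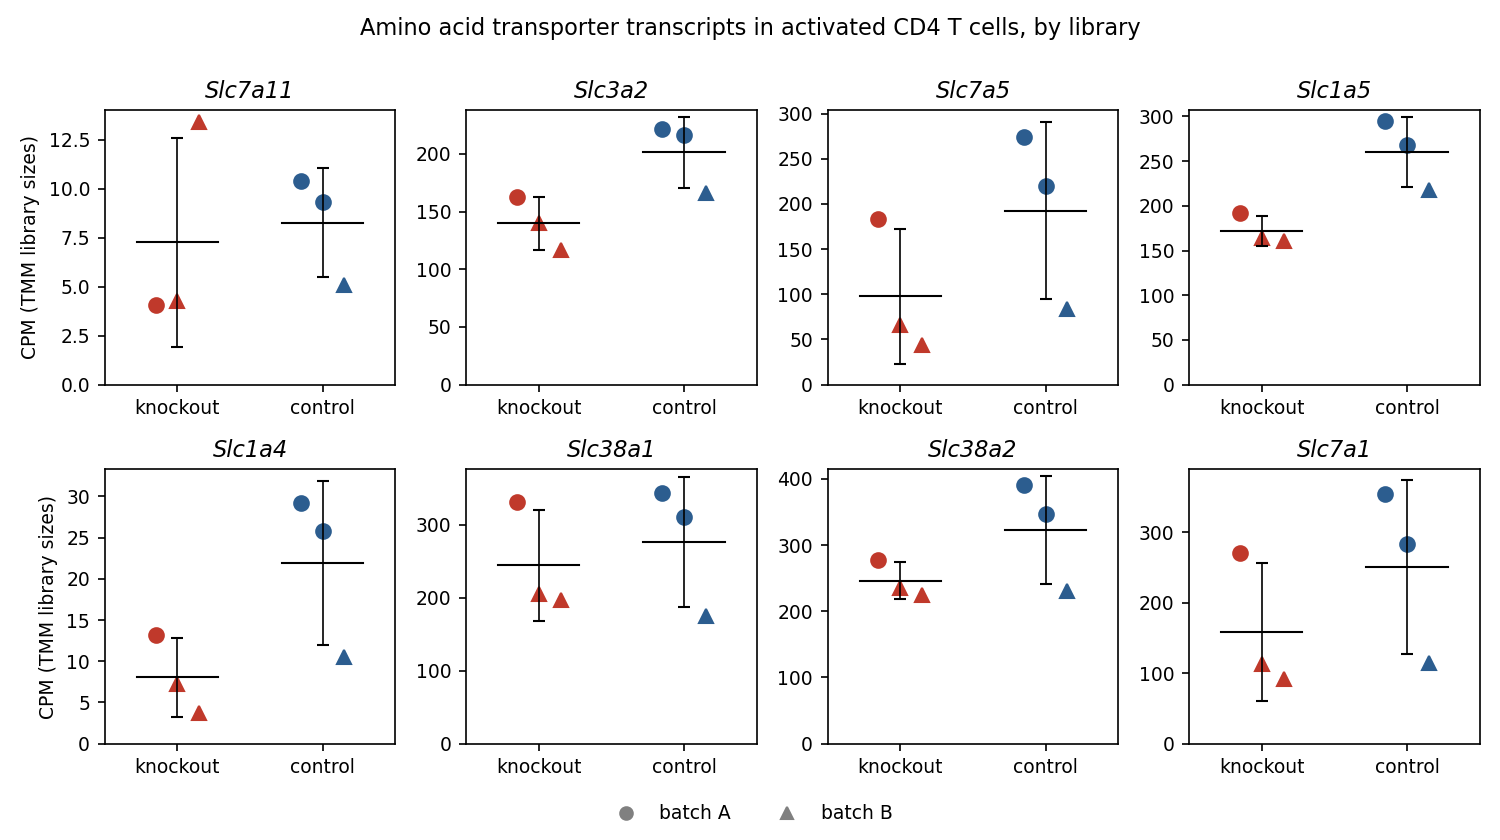
CPM of each of the 8 transporters, with one point per library, knockouts in red and controls in blue, circles for batch A and triangles for batch B. Bars are the group mean ± SD (n = 3 each). Slc1a5 and Slc3a2 are the genes whose 3 knockouts all lie below the 3 controls, and knockout 5 stands apart for Slc7a11 at 13.4 CPM.

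Slc7a11, the cystine-importing light chain (ENSMUSG00000027737.10, chromosome 3, positions 49892526 to 50443614, minus strand), was the least abundant member in all libraries but knockout 5 once scaled to length. It had 4.09, 4.29 and 13.4 CPM in knockouts 1, 4 and 5, against 10.4, 9.32 and 5.11 CPM in controls 1, 2 and 4. Knockouts 1 and 4 were below every control and knockout 5 was above every control. Its raw counts ran between 129 and 422 in knockouts and between 197 and 316 in controls. The log2 fold change was -0.19 (SE 0.52, edgeR adjusted p = 0.948) on genotype alone and -0.22 (SE 0.60, edgeR adjusted p = 0.837) with the batch term. Batch A alone gave -1.25, while batch B alone gave 0.57. A fit that lets the genotype difference vary with the batch gave 2.06 for batch B minus batch A (edgeR, unadjusted p = 0.0590, adjusted p = 0.775), and 0 genes passed this test over all genes (0%), with 996 (6.35%) at an unadjusted p under 0.05. Without knockout 5 the batch-term log2 fold change was -0.83, and without knockout 1 it was 0.77 (edgeR adjusted p = 0.0993 and 0.515). The summed markers of macrophages and monocytes were also highest in knockout 5. The 6 markers in the table, 1 of which passed the filter (Lyz2), summed to 5.96, 3.13 and 16.9 CPM in knockouts 1, 4 and 5, against 2.17, 5.42 and 1.89 CPM in controls 1, 2 and 4. Adgre1 alone was highest in control 2, and Fcgr1 was at 0 in controls 1 and 4, Cd14 in control 2 and C1qa in control 4. Summed markers of B cells and of dendritic cells were highest in knockout 5 too. Those of B cells were nearly as high in knockout 1 (21.2 against 23 CPM), where Slc7a11 was lowest. Cd79a, Pax5 and Cd22 were higher in knockout 1 than in knockout 5, and the other B cell markers were lower. The part of such cells in the Slc7a11 level was not tested. In bulk RNA, fewer cells of a type and less RNA per cell cannot be told apart.

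The 2 sodium-coupled carriers of small neutral amino acids lie next to each other on the minus strand of chromosome 15, with 44478 bases and 1 other gene between them. Neither passed the threshold in either fit. Slc38a2 (ENSMUSG00000022462.7, positions 96687392 to 96699730), a carrier known to be induced by amino acid shortage, had 278, 236 and 225 CPM in knockouts 1, 4 and 5, against 390, 347 and 231 CPM in controls 1, 2 and 4. Knockout 1 was below both controls of its batch, and knockouts 4 and 5 lay on either side of control 4. Its batch-term log2 fold change was -0.21 (SE 0.12, edgeR adjusted p = 0.296), from -0.41 inside batch A and -0.00 inside batch B, and lay between -0.42 and -0.027 when single libraries were left out. Slc38a1 (ENSMUSG00000023169.15, positions 96571418 to 96642913), a glutamine carrier of T cells, had 332, 205 and 197 CPM in knockouts 1, 4 and 5, against 344, 311 and 175 CPM in controls 1, 2 and 4. The groups overlapped inside batch A, and both batch B knockouts were above control 4. Its batch-term log2 fold change was 0.11 (SE 0.10, edgeR adjusted p = 0.490), which was -0.34 when the libraries were scaled to spike-in RNA, a scaling that moved the median of all genes to -0.44. On genotype alone Slc38a1 had -0.18 (SE 0.30, edgeR adjusted p = 0.901) and Slc38a2 -0.39 (SE 0.21, edgeR adjusted p = 0.549).

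Slc7a1, the carrier of arginine and other cationic amino acids (ENSMUSG00000041313.14, chromosome 5, positions 148327410 to 148399904, minus strand), had 271, 113 and 91.2 CPM in knockouts 1, 4 and 5, against 354, 283 and 114 CPM in controls 1, 2 and 4. Inside each batch the knockouts were below the controls, knockout 4 by about 1 CPM. The log2 fold change was -0.66 (SE 0.52, edgeR adjusted p = 0.704) on genotype alone and -0.20 (SE 0.13, edgeR adjusted p = 0.346) with the batch term, with -0.23 inside batch A and -0.17 inside batch B. Leaving out single libraries moved the value of Slc7a1 on genotype alone between -1.31 (without knockout 1) and -0.33 (without control 1), and the batch-term value between -0.28 and -0.13.

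**Figure D2:**
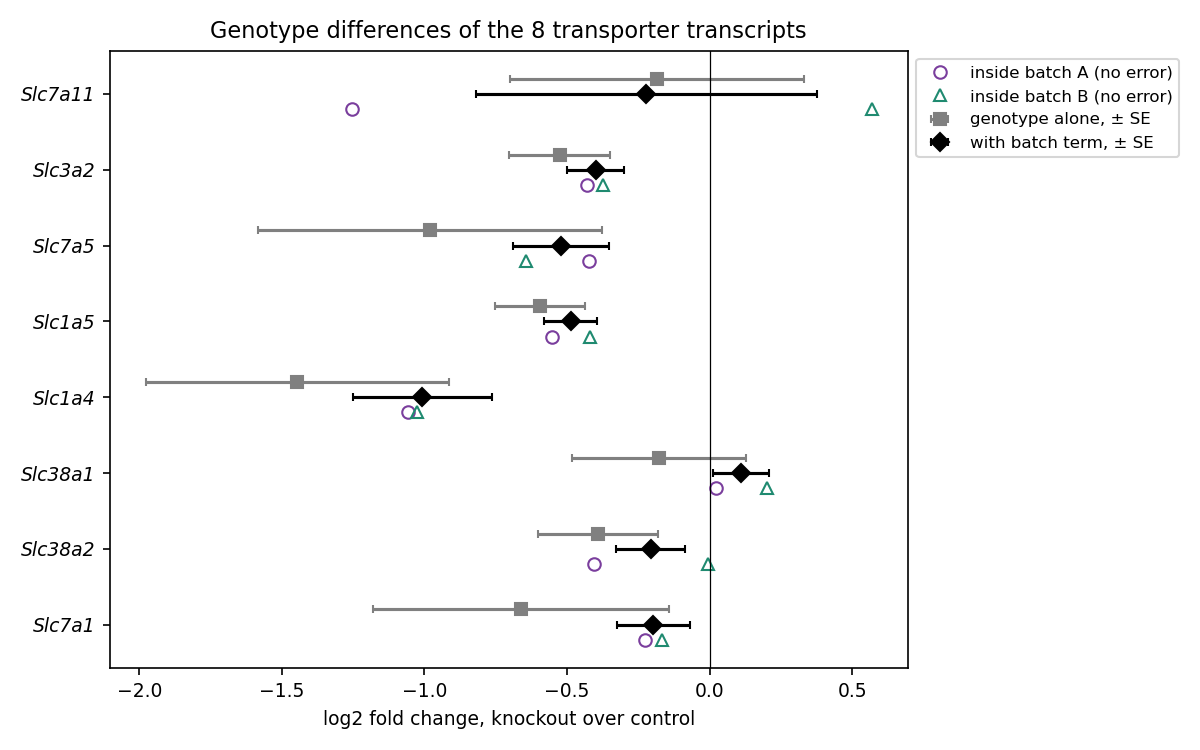
Log2 fold change of each transporter, knockout over control, on genotype alone (grey squares, ± SE) and with the batch term (black diamonds, ± SE), with the differences inside batch A (circles) and batch B (triangles) shown without error. Slc1a4 lies furthest to the left, and the within-batch values of Slc7a11, -1.25 and 0.57, lie on both sides of 0.

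Most of these transcripts differed more between batches than between genotypes. With genotype in the model, 7 of the 8 members were lower in batch B than in batch A past the threshold (edgeR), where 16.5% of all genes were lower and 15.7% higher. The median log2 fold change of the members, batch B over batch A, was -0.64, beside 0.02 for all genes. The light chain Slc7a5 had -1.65, the arginine carrier Slc7a1 -1.45 and Slc1a4 -1.33 (edgeR adjusted p = 0.00197, 0.00170 and 0.00730). The heavy chain Slc3a2 had -0.37 and Slc1a5 -0.31 (edgeR adjusted p = 0.0277 and 0.0399), and Slc7a11 was the exception at 0.06 (edgeR adjusted p = 0.945). Myc followed the same split, with 355, 163 and 144 CPM in knockouts 1, 4 and 5, against 365, 275 and 118 CPM in controls 1, 2 and 4. Its part in the batch difference was not tested. Batch B holds 2 of the 3 knockouts, and for Slc7a5 the genotype fit gave -0.98 and the batch-term fit -0.52, while Slc7a1 had -0.66 and -0.20.

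**Figure D3:**
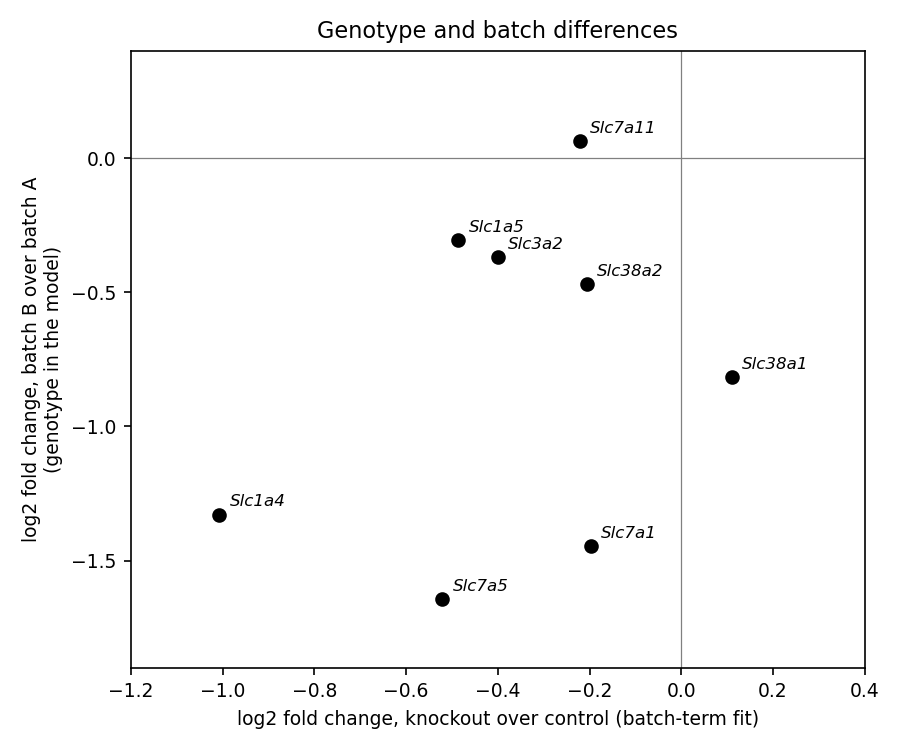
Each point is 1 transporter, with its batch-term log2 fold change, knockout over control, on the horizontal axis and its log2 fold change of batch B over batch A on the vertical axis. Slc7a5, Slc7a1 and Slc1a4 lie lowest, at -1.65, -1.45 and -1.33, and Slc7a11 lies near 0 at 0.06.

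Levels of different genes were compared per length, as CPM per kilobase (kb) of the deposited gene length. In every library Slc1a5 ranked highest and Slc3a2 next, with means of 61.4 ± 5.99 and 49.7 ± 8.13 CPM per kb in knockouts and 92.7 ± 14.1 and 71.5 ± 10.9 CPM per kb in controls (SD, n = 3 each). In knockouts Slc38a2 (40.3 ± 4.54), Slc38a1 (33.7 ± 10.4), Slc7a5 (27.7 ± 21.2) and Slc7a1 (22.0 ± 13.6) followed, and in controls Slc7a5 (54.7 ± 27.8), Slc38a2 (52.8 ± 13.4), Slc38a1 (38.1 ± 12.3) and Slc7a1 (34.9 ± 17.2 CPM per kb). Among these 6 genes the ranges of neighbours in the order overlapped in both genotypes. Slc1a4 averaged 2.05 ± 1.23 CPM per kb in knockouts and 5.57 ± 2.54 in controls, and Slc7a11 averaged 0.788 ± 0.579 and 0.897 ± 0.303 CPM per kb. Both lay below the other 6 genes in all libraries, and their ranges overlapped each other in knockouts but not in controls. With exon lengths from GENCODE release M21, Slc38a1 (17236 bases, against 7266 deposited) averaged 14.2 ± 4.40 CPM per kb in knockouts and 16.0 ± 5.20 in controls. At these lengths Slc1a5 and Slc3a2 ranked first and next by mean in both genotypes, but not in every library. The highest Slc7a5 library was at 49.3 CPM per kb in knockouts, above the highest of Slc1a5 (45.9) and of Slc3a2 (46.0). In controls the highest Slc7a5 library was at 73.9, above the highest of Slc1a5 (70.8).

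Summed over the 8 genes, the length-scaled level was 311, 212 and 190 CPM per kb in knockouts 1, 4 and 5, against 431, 381 and 241 CPM per kb in controls 1, 2 and 4. The sum was lower in the knockouts than in the controls inside each batch, while knockout 1 of batch A lay above control 4 of batch B. The share of Slc7a5 in the sum was smallest in batch B. That of Slc38a1 was higher in every knockout than in every control. The share of Slc1a4 was lower in every knockout, at most 1.08% against at least 1.11% in controls. A share also depends on the other genes of the sum, and the CPM of Slc38a1 itself overlapped between the genotypes. Slc38a1 gave 14.7%, 13.3% and 14.2% of the sum in knockouts 1, 4 and 5, against 11%, 11.2% and 9.97% in controls 1, 2 and 4. Slc7a5 gave 16.7%, 8.88% and 6.51% of it in knockouts 1, 4 and 5, against 18.1%, 16.4% and 9.89% in controls 1, 2 and 4. The ratio of the light chain Slc7a5 to its heavy chain Slc3a2, per length, was 0.900, 0.378 and 0.299 in knockouts 1, 4 and 5, against 0.990, 0.810 and 0.405 in controls 1, 2 and 4. The ratio of Slc7a11 to Slc3a2 was 0.00768, 0.00933 and 0.0351 in knockouts 1, 4 and 5, against 0.0143, 0.0131 and 0.00939 in controls 1, 2 and 4, so at the transcript level the cystine light chain was a small fraction of the heavy chain in all libraries.

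**Figure D4:**
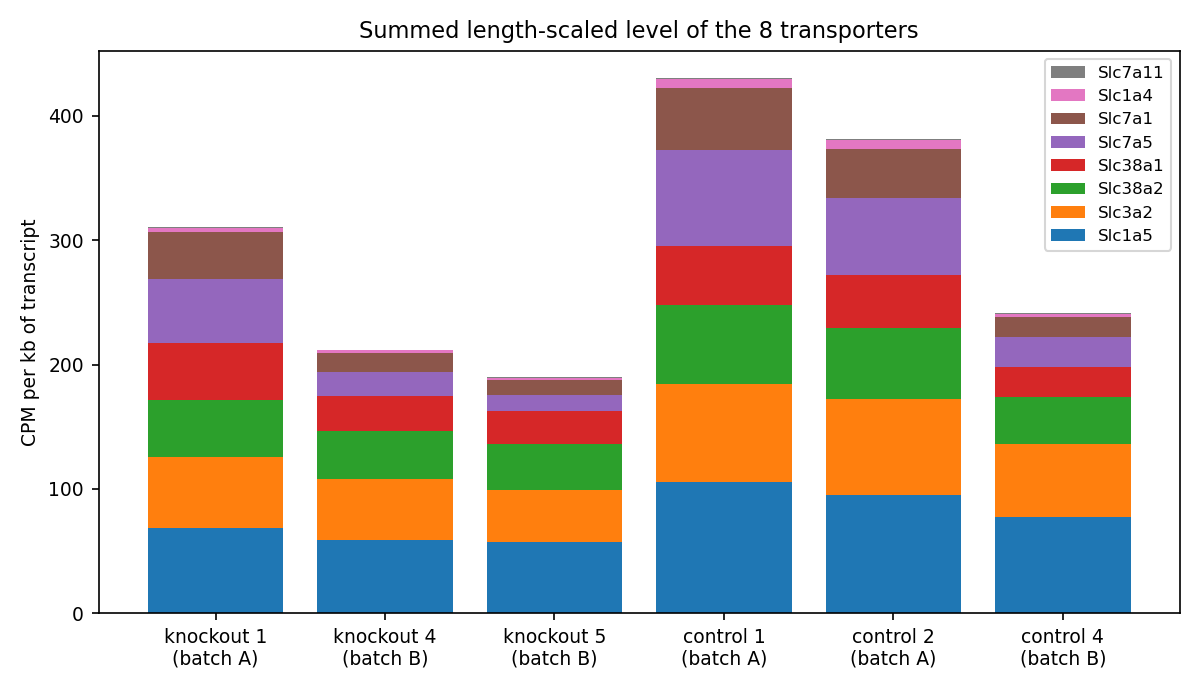
Stacked bars of CPM per kb of the 8 transporters in each library, knockouts on the left and controls on the right. The total stands at 311, 212 and 190 in knockouts 1, 4 and 5 and at 431, 381 and 241 in controls 1, 2 and 4, and the Slc7a5 part is smallest in the batch B libraries.

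Across the 6 libraries the transporters other than Slc7a11 varied together, as a description of libraries that share their batches. Pearson's r of log2 CPM lay between 0.62 and 0.99 for the 21 pairs without Slc7a11, with the highest value for Slc3a2 and Slc1a4, and between 0.01 and 0.34 for the 7 pairs with it. Among the 9274 other genes with a mean of at least 5 CPM and an established symbol, the gene with the highest r over the 6 libraries was Gid4 for Slc3a2, Ccdc85c for Slc7a5, Elovl6 for Slc1a5, Golgb1 for Slc1a4, Celf1 for Slc38a1 and Casc4 for Slc38a2. These r values were all at or above 0.99, as was that of Taf6l with Slc7a11, each the highest of many candidates over few libraries.

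RefSeq promoter sequences (build GRCm38.p6), which cover 250 bases before a gene's start and 50 after, were given for 5 of the 8 members. They were searched on both strands for TGATGNAA, the core of the element that ATF4 and C/EBP factors bind, for TGACNNNGC, the core of the antioxidant element, and for CACGTG, the E-box that Myc binds; the first overlaps neither of the others in its matches here. Slc7a11 held TGATGNAA at positions -66 and -47 from the start, the second on the other strand, and Slc1a4 held it at position -4 on the other strand, running across the start. Among 32851 promoters of the same length, 3.97% held this motif, and 13 (0.0396%) held it at 2 or more places in the 250 bases before the start. No match was found in the windows of Slc3a2, Slc38a2 or Slc7a1. The antioxidant core was found once each in Slc38a2 and Slc7a1 (12.4% of all promoters), and CACGTG in none of the 5 (7.15% of all promoters). The sequences below show the window with a pair of matches, in the member with no steady genotype difference, the site of the member with the most negative fold change, and the window of the heavy chain that lacks the motif. Capitals mark the motif.
Slc7a11, chr3:50443614-50443733, minus strand, positions -120 to -1: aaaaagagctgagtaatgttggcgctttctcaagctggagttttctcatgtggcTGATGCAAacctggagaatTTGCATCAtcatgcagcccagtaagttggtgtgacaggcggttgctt
Slc1a4, chr11:20332703-20332732, minus strand: agcgtgcctcctgcgTTGCATCAtctccag
Slc3a2, chr19:8713898-8714017, minus strand, positions -120 to -1: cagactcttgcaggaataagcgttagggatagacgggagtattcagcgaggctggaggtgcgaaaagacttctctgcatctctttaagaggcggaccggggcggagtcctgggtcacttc
The match is a description of the letters and says nothing of binding in these cells. The RefSeq start of Slc3a2 used here lies inside its GENCODE gene span, downstream of the annotated gene start. The bases just after it were found in no GENCODE transcript of the gene. The sequence before the annotated gene start was not searched, so the lack of the motif holds for the window shown only.

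Other genes of amino acid transport and use were read from lists chosen with earlier results of these data known. Their values are from the batch-term fit unless stated, since 0 genes of any list passed on genotype alone, as 0 of all genes did. Of all genes, 3.63% fell and 2.87% rose in the batch-term fit. Of 41 other plasma membrane transporters 18 were tested, and with the batch term 1 fell and 0 rose. The 1 that fell was Slc6a9, the glycine transporter, by 1.58 on the log2 scale (edgeR adjusted p = 0.0177). Slc6a9 stood at 6.24, 1.45 and 1.18 CPM in knockouts 1, 4 and 5, against 19.1, 13.8 and 4.59 CPM in controls 1, 2 and 4, lower in the knockouts inside each batch. The cationic amino acid carrier Slc7a3 had 6.15, 6.75 and 2.80 CPM in knockouts 1, 4 and 5, against 20.2, 16.3 and 10.2 CPM in controls 1, 2 and 4. Its groups did not overlap, and 8.68% of all genes had every knockout below every control. The log2 fold change of Slc7a3 was -1.33 with the batch term (edgeR adjusted p = 0.0521). Slc43a2, a carrier of large neutral amino acids, had -0.59 (-0.94 without knockout 1 and -0.27 without control 4), and Slc6a6, the taurine carrier and the most abundant of the list, had 0.16, which turned negative on genotype alone (-0.05) and under spike-in scaling (-0.28). The list median with the batch term was 0.13, beside 0.02 for all genes. None of the 8 tested genes listed as lysosomal transporters passed by edgeR in either fit (batch-term median -0.05, with 0 at an unadjusted p under 0.05 in that fit). Slc38a10 had -0.16, the cationic amino acid exporter Pqlc2 -0.28 and the lysosomal glutamine carrier Slc38a7 0.20.

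Of 18 genes of ATF4, its regulators and its partners, 3 fell and 0 rose with the batch term, where 3.63% of all genes fell, and 15 did not pass. Trib3, a pseudokinase induced by ATF4, was at 7.26, 6.37 and 3.15 CPM in knockouts 1, 4 and 5, against 27.8, 28.5 and 15.6 CPM in controls 1, 2 and 4, and fell by 1.83 (edgeR adjusted p = 0.0199). Ddit3, which encodes the stress factor CHOP, fell by 1.08, and Cebpg, a partner of ATF4, by 0.43 on the log2 scale (edgeR adjusted p = 0.0174 and 0.0387). The list median with the batch term was -0.26, beside 0.02 for all genes. Eif2s1, which encodes the initiation factor subunit whose phosphorylation raises ATF4, had -0.09 (edgeR adjusted p = 0.665).

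Among 15 genes of glutathione synthesis and cystine use, 2 fell and 0 rose with the batch term, where 3.63% of all genes fell. Cth, which makes cysteine inside the cell, was at 4.63, 6.37 and 3.63 CPM in knockouts 1, 4 and 5, against 19.1, 17.6 and 15 CPM in controls 1, 2 and 4, and fell by 1.78 on the log2 scale (edgeR adjusted p = 0.0177). Gpx4, the glutathione peroxidase that acts on lipid peroxides, fell by 0.45 (edgeR adjusted p = 0.0453), and Txn1, thioredoxin, had -0.46 (edgeR adjusted p = 0.0543). The cystine transporter gene itself, Slc7a11, had -0.22 with an SE of 0.60, an error too large to set it apart from the value of Gpx4. The list median was -0.09, beside 0.02 for all genes. On genotype alone Gpx4 had -0.14 (edgeR adjusted p = 0.941). Of 17 tested enzymes that use glutamine, leucine and arginine, 1 fell with the batch term, where 3.63% of all genes fell. Got1, the cytosolic aspartate aminotransferase, fell by 0.50 on the log2 scale (edgeR adjusted p = 0.0485). The arginine synthesis genes Ass1 and Asl had 0.74 and -0.48 and did not pass (edgeR adjusted p = 0.0812 and 0.0652), Ass1 with 1.09 without knockout 1 and 0.36 without control 4, and Odc1, the first enzyme of polyamine synthesis, had 0.17, which was -0.29 under spike-in scaling. The list median was -0.13, beside 0.02 for all genes. With knockout 1 or control 4 left out, 1 batch keeps libraries of 1 genotype only. In the batch-term fit edgeR then called 0 of all genes, with 1675 higher and 1832 lower at an unadjusted p under 0.05 without knockout 1 and 1324 and 1334 without control 4, so every list call given here was lost.

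In the authors' deposited table, whose fold changes are control over knockout, 3 of the 8 members were lower in knockouts at an adjusted p under 0.05, where 2.95% of its genes were, and 3.15% were higher. Slc1a5 had a log2 fold change of 0.55 (adjusted p = 0.00411), Slc3a2 one of 0.44 (adjusted p = 0.0452) and Slc1a4 one of 1.09 (adjusted p = 0.0354) in the authors' deposited table. For Slc7a5 the authors' deposited table gave 0.15 (adjusted p = 0.213) and for Slc7a11 it gave 0.01 (adjusted p = 0.926).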

How the data were processed

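The deposited counts are raw reads per gene, one column a library, named as raw in the header. Per the submitters' processing notes, STAR, featureCounts, DESeq2 and DESeq were used with build GRCm38.p3, without role, order or version, and no source used here says whether counting used strand. The labels' protocols name ribosomal RNA depletion and stranded libraries. A normalized signal, given by the authors for 19941 genes, equals the raw count over 1 factor per library and entered no test. The authors' deposited log2 fold changes are control over knockout, and their deposited adjusted p-values carry no named method. The deposited gene length in base pairs was used for CPM per kb. Values of 12 other columns, which match no sample label, were left out. Groups came from the sample titles, and batches from a tag in the column names.

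Genes with few reads were removed (edgeR 4.0.16, filterByExpr, with a count of at least 10 and a total of at least 15), and the rest were scaled with TMM factors without the 92 spike-in rows (ERCC), and fitted with glmQLFit on genotype, or on batch and genotype. Standard errors are the fold change over the square root of F. Differences inside a batch are of mean log2 CPM (prior count 2) and have no test. R 4.3.3, limma 3.58.1, DESeq2 1.42.0 and Python 3.11.15 were used, and the fit was tested on simulated data. Coordinates are from GENCODE release M21 for GRCm38. The series calls the libraries biological replicates, and no 2 agreed within sampling noise (chi-square of at least 13.3 per gene). Counts limit precision, and among the members they are given for Slc1a4, Slc1a5 and Slc7a11.

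The members and lists were chosen with earlier results of these data known. Named genes were the members, Prmt5, and from each list the 3 tested genes with the smallest batch-term p, those past the threshold and the most abundant; and the most correlated gene of each member, which for Slc7a1 is not reported here. The interaction fit, the fit without knockouts 1 and 5 and the GENCODE lengths were chosen after seeing the data.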

Additional observations from a re-analysis of the deposited data

How the results depend on the processing

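On genotype alone, edgeR called 0 higher and 0 lower genes and 0 members. ERCC scaling gave 61 higher and 212 lower genes and 2 lower members. Without a count filter these were 493, 227 and 2, and DESeq2 called 252 and 190 genes and 0 members. With the batch term, 450 higher and 570 lower genes and 1 lower member (Slc1a5) became 77 and 316 genes and 1 lower member (Slc1a4) under ERCC scaling. Under that scaling the edgeR adjusted p was 0.295 for Slc1a5 and 0.0336 for Slc1a4. Without the filter the batch-term fit called 1552 and 1392 genes and 4 members. DESeq2 gave 1096 and 1282 genes and 4 members, and limma-voom 2 members. Leaving out single libraries gave 0 to 1062 higher and 0 to 994 lower genes and 0 to 4 lower members with the batch term, and 0 throughout on genotype alone. Without knockouts 1 and 5 together, where B cell markers were highest (21.2 and 23 CPM), it was 741 higher and 770 lower genes and 0 members. That leaves knockout 4 alone, assumed to vary like the controls, and its batch-term value is knockout 4 against control 4, 1 library each. No higher member was called under any of these settings. Replicate numbers 1 and 4 occur in both genotypes, but 2 pairs do not show a pairing. Their deviations correlated at 0.58 and 0.43, and those of knockout 1 with control 2 and of knockout 5 with control 4, which share a batch, at 0.40 and 0.41. The replicate block gave 333 higher and 435 lower genes and 3 lower members (Slc7a5, Slc1a5 and Slc1a4) in either design, and turned Slc38a1 to 0.089, Slc6a6 to 0.10 and Myc to 0.21. Its genotype difference rests on those 2 pairs, since the replicate numbers of control 2 and knockout 5 occur in 1 genotype only.

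Signs turned as follows, and the cause was not tested. On genotype alone ERCC scaling, which moved all genes by a median of -0.59, gave -0.62 for Slc38a7, -0.44 for Odc1 and -0.074 for Mxd1. With the batch term (all genes -0.44) it gave -0.34 for Slc38a1, -0.28 for Slc6a6, -0.25 for Slc38a7, -0.29 for Odc1, -0.0071 for Castor1 and -0.17 for Myc. Slc38a7 had -0.000364 with median-of-ratios scaling and -0.025 without the filter. With knockout 4 as the only knockout, genotype alone gave -0.30 for Slc38a7, 0.20 for Eif2s1, 0.16 for Gpx4, 0.11 for Txn1, -0.57 for Mxd1 and 0.085 for Mxd3, and the batch term 0.031 for Slc38a2, 0.21 for Eif2s1 and -0.046 for Mxd1. Leaving out single libraries, the range on genotype alone was -0.98 to 0.085 for Slc7a11, -0.47 to 0.0039 for Slc38a1, -0.17 to 0.052 for Eif2s1, -0.36 to 0.24 for Gpx4, -0.016 to 0.92 for Mxd1, -0.34 to 0.042 for Mxd3, -0.73 to 0.16 for Myc, -0.38 to 0.013 for Pqlc2, -0.26 to 0.20 for Slc38a7 and -0.28 to 0.15 for Slc6a6. With the batch term it was -1.28 to 0.77 for Slc7a11 and -0.25 to 0.041 for Eif2s1.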

Other observations

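Carriers of the inner mitochondrial membrane held 1 call. Of 13 tested mitochondrial amino acid carriers 1 fell and 0 rose with the batch term, and the list median was -0.26, beside 0.02 for all genes, of which 3.63% fell. The 1 was Slc25a12, which exchanges aspartate for glutamate. It had 100.3, 144 and 139 CPM in knockouts 1, 4 and 5, against 135, 130 and 176 CPM in controls 1, 2 and 4, and fell by 0.36 on the log2 scale (edgeR adjusted p = 0.0463), with -0.20 on genotype alone (edgeR adjusted p = 0.773). Its groups overlapped, and the knockouts were lower inside each batch. Slc25a39, the mitochondrial glutathione carrier, had 55.2, 52.9 and 46.8 CPM in knockouts 1, 4 and 5, against 69.9, 65.1 and 67.0 CPM in controls 1, 2 and 4. Its groups did not overlap, and 8.68% of all genes had every knockout below every control. The log2 fold change of Slc25a39 was -0.36 (edgeR adjusted p = 0.0651). The ornithine carrier Slc25a15 had -0.43 and the serine carrier Sfxn1 -0.26 (edgeR adjusted p = 0.0798 and 0.145).

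Of 30 genes of amino acid sensing by the kinase complex mTORC1, 1 rose and 0 fell with the batch term, where 2.87% of all genes rose, and the list median was -0.04. Sesn3, a sestrin that restrains this complex, had 521, 385 and 605 CPM in knockouts 1, 4 and 5, against 289, 276 and 220 CPM in controls 1, 2 and 4, and rose by 1.03 on the log2 scale (edgeR adjusted p = 0.0277). All 3 knockouts were above all 3 controls, which held for 9.35% of all genes. Without knockout 1 or control 4 edgeR called 0 of all genes in this fit (1675 and 1324 higher at an unadjusted p under 0.05), so the calls of Slc25a12 and Sesn3 were lost. The arginine sensor gene Castor1 had 0.48, which was -0.01 under spike-in scaling, and the leucyl-tRNA synthetase gene Lars had -0.53 (edgeR adjusted p = 0.0610 for each). None of 9 genes of Myc and its partners passed by edgeR, with 3 at an unadjusted p under 0.05 in the batch-term fit, where 2356 of all 15685 genes were higher and 2205 lower at that p. Mycn had 1.12 (0.61 without knockout 1 and 1.60 without control 4) at a mean of 2.53 CPM in knockouts and 1.15 CPM in controls, the Myc antagonist genes Mxd1 and Mxd3 had 0.79 and -0.41, and Myc had 0.26, which was -0.20 on genotype alone and -0.17 under spike-in scaling.

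Of the 41 other plasma membrane transporters 23 did not pass the filter on low counts. The highest count of any of them in a library was 28, for Slc38a3, and Slc7a12 had 0 counts in every library.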
